A study of Rattus norvegicus with 16 samples.

Results

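The genes described here are the 60 that were highest, by a fixed rule, in the hypothalamus of F1 rats exposed to an EDC mixture, EDC standing for endocrine disrupting chemicals, relative to every other library of the study. They are 60 of the 32883 rat genes listed in the deposited counts. For each library, a gene's count was scaled to a common total of 1000000 gene counts (CPM). A gene had to reach 1 CPM in each of the 4 F1 EDC libraries, which 13308 genes did. These were ranked by the lowest F1 EDC value divided by the highest value of the 12 other libraries plus an offset of 0.1 CPM, and the first 60 were taken. The members were thus chosen by their measured levels in all 16 libraries. They are called by rank below, from member 1 to member 60.

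The labels give all rats as female Wistar rats aged 21 days, and the tissue is a block of hypothalamus labelled MBH-PoA. Each generation, F1 and F3, had a control and an EDC group, with 4 libraries in each of the 4 groups. The mixture, or vehicle in the controls, was given in food along the maternal line, starting 2 weeks before gestation and ending with lactation. F1 rats were exposed in utero, and F3 rats descended from exposed or vehicle-treated ancestors. The labels do not say how many rats stand behind a library or whether rats were littermates, so p-values measure the spread between these libraries.

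The hypothalamus holds the neurons that time puberty and steer feeding, stress responses and maternal behavior, and many of them respond to sex steroids. Endocrine disrupting chemicals are compounds that interfere with the making, transport or action of hormones. A gene that is near silent in one group and transcribed in another can reflect a change within cells or a change in which cells the block holds, and in bulk tissue these cannot be told apart.

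The deposited counts carry Ensembl gene IDs without symbols, and 0 of the 32883 IDs could be paired with a symbol in the gene table at hand. The members therefore cannot be sorted by function, no sequence is shown for them, and neither the tissue nor the sex given in the labels was checked against marker genes. The 2 leading members and the 2 that were lower in F3 EDC are given by ID.

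Gene counts per library ran from 5655354 to 35981898. Reads that mapped to several places made up 41.8% to 51.6% of an F1 EDC library and 15.7% to 44.4% of another library. Unmapped reads were 3.96% to 4.45% in F1 EDC and 3.63% to 9.45% in the others. The part of either in the members' levels was not tested, since the rule fixed a low level in every library outside F1 EDC.

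Together the 60 members held 1.59% ± 0.0560 of the gene counts in F1 EDC (SD, n = 4). The shares were 1.52%, 1.57%, 1.62% and 1.65% in F1 EDC replicates 1 to 4. They were 0.260% ± 0.0301 in F1 control, 0.227% ± 0.0147 in F3 control and 0.234% ± 0.0141 in F3 EDC (SD, n = 4 each). The rule chose the members by these values, so the gap between F1 EDC and the rest is a description and was given no test. A few abundant members carried most of the sum: members 41, 5 and 53 made up 50.3% of it in F1 EDC, and the 8 most abundant 75.9%.

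**Figure D1:**
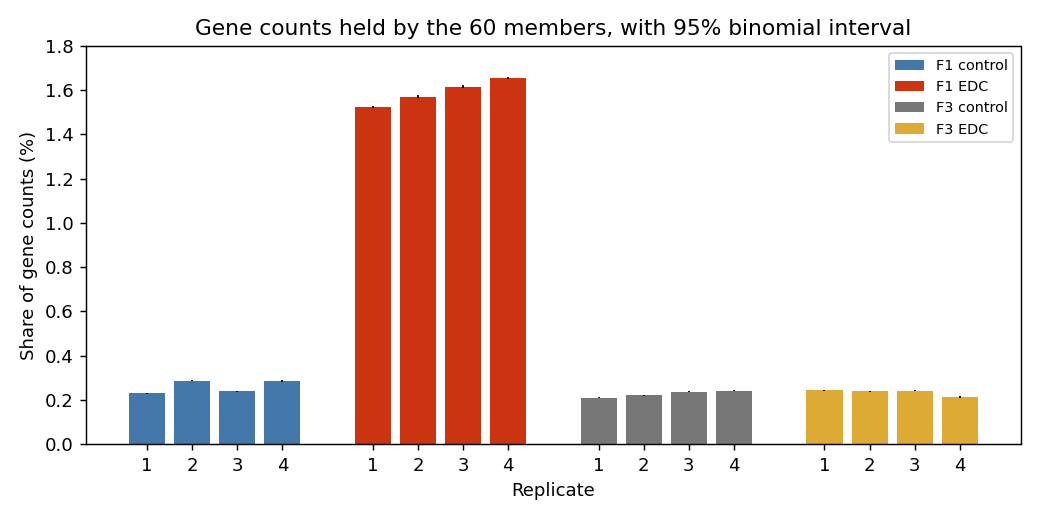
Share of each library's gene counts (%, vertical axis) held by the 60 members, with 1 bar per library and its exact 95% binomial interval, which covers counting error only. The 4 F1 EDC bars lie between 1.52% and 1.65%, and the highest of the 12 others is at 0.286%.

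The ratio that ranked the members ran from 83.8 for member 1 to 3.16 for member 60, with a median of 4.11. It was at least 10 for 6 members and at least 5 for 17. The bottom of the list was close to the genes left out: members 59 and 60 had ratios of 3.17 and 3.16, and the next 3 genes 3.15, 3.15 and 3.13. The members thus form the upper end of a continuous range, apart from the first few.

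**Figure D2:**
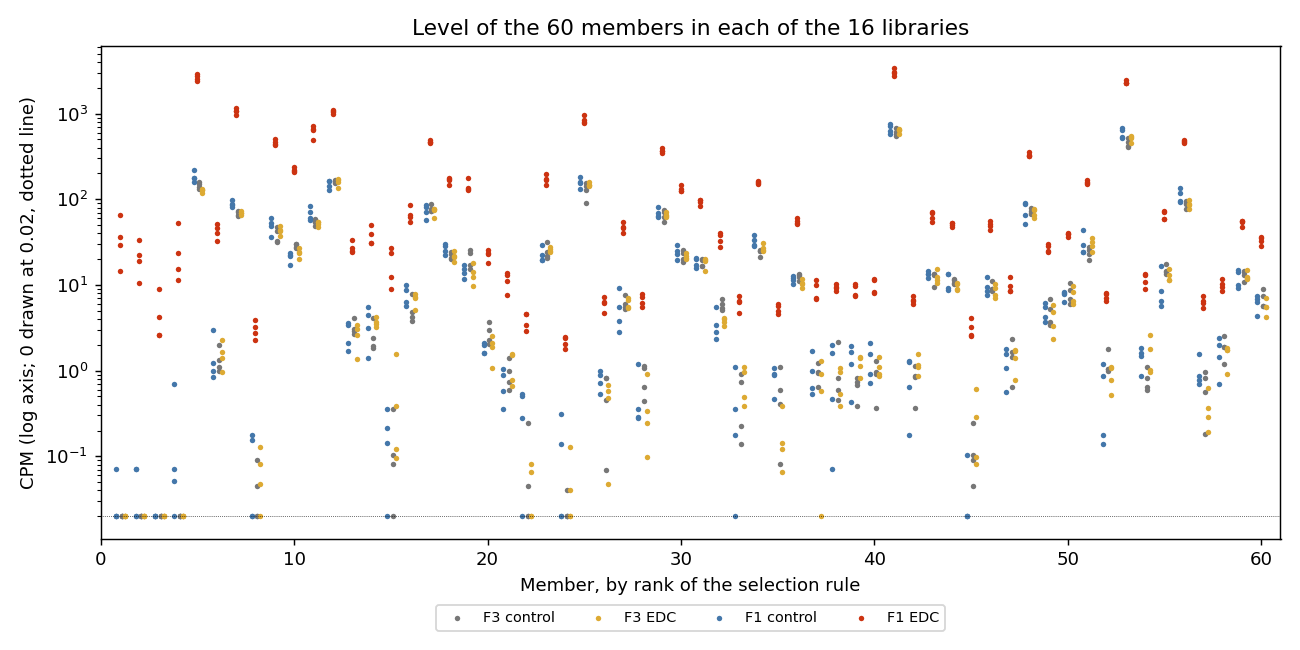
CPM (log axis) of each member in each of the 16 libraries against its rank, with values of 0 drawn at 0.02 on the dotted line. Members 1 to 4 are at or near 0 outside F1 EDC, whereas most of the others have a clear level in all groups and a higher one in F1 EDC.

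The members fell into 4 levels by their highest value outside F1 EDC. It was under 1 CPM for 9 members, from 1 to under 10 CPM for 24, from 10 to under 100 CPM for 21 and at least 100 CPM for 6. So 51 of the 60 had a measurable level somewhere outside F1 EDC, and 49 had counts in all 12 other libraries. For these 49 genes F1 EDC held more of a transcript that all 12 other libraries also had counts of. Member 15 is among the 51 through F3 EDC replicate 4 alone, at 1.56 CPM. It was at 0.389 CPM or less in the other libraries outside F1 EDC.

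The first 4 members were at or near 0 outside F1 EDC. The files give no chromosome for any gene, so it is not known whether these 4 lie on a sex chromosome. If they were Y-linked, counts in the F1 EDC libraries would mean male material there, against the labels. Sex would then differ between F1 EDC and the other groups together with the mixture. This was not tested. Until the IDs are placed, the values of these 4 genes below cannot be read as an effect of the mixture. The same holds for all other members and for every comparison that uses the F1 EDC libraries. Member 1, ENSRNOG00000057231, had 199, 380, 639 and 1293 counts in F1 EDC replicates 1 to 4. It had 1 count in F1 control replicate 3 and 0 in the other 11 libraries. On the scale of CPM its F1 EDC levels were 14.4, 28.9, 64.8 and 35.9. Member 2, ENSRNOG00000060496, had 147, 253, 330 and 795 counts in F1 EDC, 1 count each in F1 control replicates 1 and 3, and 0 in the other 10 libraries. Its F1 EDC levels were 10.6, 19.2, 33.5 and 22.1 CPM.

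Member 3 had 36, 34, 89 and 152 counts in F1 EDC and 0 in all 12 other libraries, the only member with that pattern. Member 4 had 159, 203, 517 and 851 counts in F1 EDC. Its F1 control counts were 1, 1, 0 and 4 in replicates 1 to 4, and it had 0 in all 8 F3 libraries. The few counts that members 1, 2 and 4 had outside F1 EDC were therefore in F1 control libraries alone. The F3 libraries gave 0 counts of these 4 genes among 172813657 gene counts, and F1 control gave 9 in all among 53048272. The names of the F1 and F3 files carry different numbers in the place of a lane, each shared by 8 libraries, whereas the labels give 4 samples per lane. The part of this in the stray counts was not tested.

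With the 4 libraries of a group pooled, member 1 was 1829 times as high in F1 EDC as in F1 control, with a 95% interval of 328 to 72270 that covers counting error only. Member 2 was 555 times as high (153 to 4590) and member 4 was 210 times as high (96.3 to 573). A count of 0 allows up to 3 counts, so member 3 was at least 75.5-fold higher in F1 EDC than in F1 control. Against pooled F3 control, where all 4 had 0 counts, the bounds were at least 994-fold higher for member 1, at least 603-fold higher for member 2, at least 123-fold higher for member 3 and at least 685-fold higher for member 4. The pooled F3 EDC libraries gave bounds of 993, 603, 123 and 684.

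These 4 genes, with member 15, had the widest spread within F1 EDC of the 60. Their highest F1 EDC library was 3.15 to 4.56 times their lowest, whereas 45 of the 60 members stayed within 1.5. Members 1, 2 and 4 were lowest in replicate 1, followed by replicates 2, 4 and 3. In all, 5 of the 60 members had this order. Member 3 had the same order except that replicates 1 and 2 were nearly equal, at 2.60 and 2.59 CPM. Their coefficients of variation (SD over mean) were 58.9%, 44.2%, 66.0% and 71.8%. Of the 6254 genes with at least 1 CPM in each F1 EDC library and a mean in the range of these 4, 71 had a coefficient of at least 44.2%, and the median was 13.9%.

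Member 15 was the remaining member that varied more than 2-fold, by 2.99-fold and with a coefficient of variation of 47.8%, with 23.8, 12.5, 26.8 and 8.95 CPM in F1 EDC replicates 1 to 4. Its order differed from that of members 1 to 4. Outside F1 EDC it was at 0.354 CPM or less in F1 control, 0.362 CPM or less in F3 control, and 0.389, 0.0960, 0.123 and 1.56 CPM in F3 EDC. F3 EDC replicate 4 was therefore the library that set its place in the ranking.

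**Figure D3:**
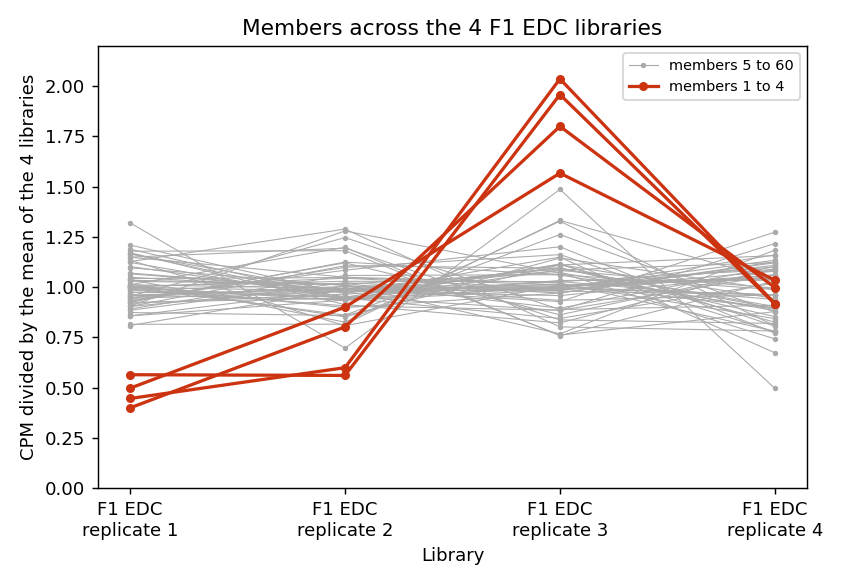
CPM of each member divided by its mean over the 4 F1 EDC libraries (vertical axis), by library; lines join the values of 1 gene and the replicates have no order. Members 1 to 4 are all highest in replicate 3, as are 13 of the other 56. The median coefficient of variation of these 56 is 11.8%.

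In the order of the deposited rows, whose meaning the files do not state, members 1 to 4 lay within 12 rows of each other, between rows 32855 and 32866 of 32883. The nearest other member was 443 rows away. Of the genes in these 12 rows, 7 had any count and 5 reached 1 CPM in every F1 EDC library. The fifth is no member, since its level in the other groups was similar. Among all genes, 4 had 0 counts in the 8 F3 libraries and at least 1 CPM in each F1 EDC library, and these are members 1 to 4. With a floor of 0.5 CPM there was 1 more, in row 32838. It had 0.650, 1.90, 6.29 and 4.22 CPM in F1 EDC replicates 1 to 4, the same order of libraries, and 1 count in F1 control replicate 1. It missed the list because its lowest library was under 1 CPM.

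The other 5 members under 1 CPM outside F1 EDC, which are members 8, 22, 24, 26 and 45, were low in F1 EDC as well, at means of 2.19 to 6.08 CPM. Member 8 had 2.75, 3.88, 3.25 and 2.25 CPM in F1 EDC and 0.177 CPM or less in every other library. Member 24 had 2.46, 2.05, 2.43 and 1.81 CPM in F1 EDC and 0.312 CPM or less elsewhere. In contrast to members 1 to 4, both had counts in F3 libraries. With so few counts their place depends on the offset: with an offset of 1 CPM, 3 of the 9 members in this level stayed in the list, against 12 of 24, 21 of 21 and 6 of 6 in the higher levels.

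The 24 members from 1 to under 10 CPM had a mean F1 EDC level of 5.29 to 66.4 CPM, with a median of 10.7. Member 6 led them, with 40.2, 46.2, 51.1 and 32.8 CPM in F1 EDC. It had 0.847, 0.987, 1.22 and 3.01 CPM in F1 control, at most 1.99 CPM in F3 control and at most 2.26 CPM in F3 EDC. All 4 F1 EDC values were over 10 times the highest of the 12. Over the 24 members, the mean of F1 EDC was 5.34 to 63.2 times that of the 12 other libraries, with a median of 9.70.

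The 21 members from 10 to under 100 CPM had a mean F1 EDC level of 38.8 to 1071 CPM, with a median of 157. Member 7 was the most abundant, at 1084, 1064, 1169 and 968 CPM in F1 EDC. It was at 80.2, 85.0, 88.8 and 97.6 CPM in F1 control and between 63.9 and 72.7 CPM in the 8 F3 libraries. The mean of F1 EDC over the 12 other libraries was 4.22 to 14.3 in this level, with a median of 5.61. The libraries of F1 EDC lay close together here, with a median coefficient of variation of 7.22%.

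The 6 members at 100 CPM or more elsewhere were members 5, 12, 25, 41, 53 and 56. Member 5, ENSRNOG00000017445, stood out among them: it was at 2429, 2551, 2715 and 2874 CPM in F1 EDC, 17.4 times the mean of the 12 others. Member 41, the most abundant of all members, was at 2750, 3051, 2994 and 3373 CPM in F1 EDC. It was at 619, 755, 579 and 719 CPM in F1 control, 553 to 681 CPM in F3 control and 572 to 668 CPM in F3 EDC. Its mean F1 EDC level was thus 4.79 times that of the 12 others. The coefficient of variation in F1 EDC was 3.40% to 9.42% in these 6 genes, so the larger the level, the closer the 4 libraries lay in these classes, with medians of 24.3%, 15.8%, 7.22% and 5.71% from the lowest level to the highest.

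Over members 5 to 60, the mean of F1 EDC was a median 7.68 times that of F1 control (3.93 to 121), 7.63 times that of F3 control (4.08 to 215) and 7.64 times that of F3 EDC (4.18 to 105). The medians were close, but single members were not always so. Member 22 was 11.8, 53.5 and 105 times as high in F1 EDC as in F1 control, F3 control and F3 EDC, and member 45 was 121, 25.8 and 11.6 times as high; both rest on few counts outside F1 EDC. These ratios share the F1 EDC libraries and were fixed in their direction by the rule. In edgeR's fit of all groups the log2 fold change of F1 EDC against F1 control had a median of 2.89 over the 60 members and ran from 1.86 to 6.86 over members 5 to 60; the fitted values of members 1 to 4, with few or no control counts, depend on the prior count. All 60 were called higher there, where of the 15366 genes tested 25.4% were called higher, 27% lower and 52.4% either way, and nothing is read from that count because the rule used this contrast.

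The rule was also applied with 1 library left out at a time, which leaves a library that took no part in the choice. The libraries it was then set against had all taken part in the choice. The counts below are therefore a description and no independent test. Without an F1 EDC library, 54 to 57 of the 60 members were picked again. In the F1 EDC library left out, all 60 picked genes lay above the highest of the 12 other libraries, whichever of the 4 was left out, where 30.4% to 35.2% of all genes ranked did. The ratio in the library left out had a median of 4.75 to 4.82 and a lowest value of 1.81 to 3.03. Without an F1 control library, 55 to 57 members were picked again. In the F1 control library left out, all 60 picked genes lay below the lowest F1 EDC library for replicates 1, 3 and 4 and 59 did for replicate 2, where 36.7% to 50.7% of all genes ranked did. Without an F3 library, 58 to 60 members were picked again and all 60 picked genes lay below F1 EDC in each library left out, where 42.5% to 55.1% of all genes ranked did.

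The F3 comparison asks how rats with exposed ancestors differed from F3 controls, and the rule fixed no direction for it. By the quasi-likelihood test of edgeR, with Benjamini-Hochberg adjustment over all 15366 genes tested and a threshold of 0.05, 2 of the 60 members were lower in F3 EDC and 0 were higher. Of all genes tested 2.94% were called, 1.87% as lower and 1.07% as higher. The members' share of 3.33% is near that background. At an unadjusted p under 0.05 there were 10 members lower and 2 higher, which is 20% of the members, beside 16.6% of all genes in either direction. The share of all genes in each direction at that threshold is not given, so nothing is read from the split. DESeq2 and limma voom each called 4 members (6.67%), all lower, namely members 5, 10, 19 and 32. DESeq2 called 5.04% of all genes, 3.15% as lower, and limma voom 9.81%, 6.5% as lower. The fitted log2 fold change was above 0 for 19 members, where 45% of all genes were, and below 0 for 37; members 1 to 4 had no counts in F3. Over all 60 the median was -0.09, beside -0.03 over all genes tested.

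The count filter was passed by all 60 members, but 9 of them, members 1 to 4 among these, passed it through F1 EDC alone. The rule limits the highest of the 12 other libraries, which favours genes that are even among them, so a share of calls below the background would carry no meaning. Over the 51 members that passed the filter without F1 EDC, the log2 fold change in F3 ran from -1.78 to 0.87, with a median of -0.11. It was within 0.5 of 0 for 40 of them. The share of all genes within that range is not given, so nothing is read from the 40. Over all 60 members the median absolute log2 fold change was 0.27, beside 0.16 over all genes tested. The members' SE was also larger, at a median of 0.19 against 0.14. Of the 51, 2 were called in F3, where 2.94% of all genes tested were.

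Member 5, ENSRNOG00000017445, gave 140.0, 133, 152 and 157 CPM in F3 control replicates 1 to 4. Its F3 EDC values were 119, 127, 131 and 128 CPM. The F3 EDC values all lay below the F3 control values, opposite in direction to F1, where 161, 217, 179 and 177 CPM in control stood against at least 2429 CPM in EDC. In F3 it fell by 0.27 on the log2 scale, with an SE of 0.07 (edgeR, adjusted p = 0.0277). Member 10, ENSRNOG00000019365, gave 27.3, 30.1, 27.7 and 30.2 CPM in F3 control replicates 1 to 4, and 26.7, 24.5, 23.4 and 20.3 CPM in F3 EDC, again without overlap. It fell by 0.35 on the log2 scale, with an SE of 0.09 (edgeR, adjusted p = 0.0326). In F1 it was at 22.5, 22.0, 17.2 and 23.9 CPM in control and at 209, 216, 239 and 219.9 CPM in EDC. Both changes in F3 are small beside those in F1. The rule fixed the F1 direction and kept every F3 value well below F1 EDC. Nothing is therefore read from the difference in size or direction.

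Neither call was firm. Over 27 alternatives the adjusted p of member 5 ran from 0.00608 to 0.111 and it was lost in 15, and that of member 10 ran from 0.00786 to 0.203 and it was lost in 11. The count of 2 was 0 without any 1 of F1 EDC replicates 1, 2, 3 or 4, F3 control replicate 2 or F3 EDC replicate 3 (edgeR, with 9 to 11 members at an unadjusted p under 0.05), and 1 without F3 control replicate 1 or 3 or F3 EDC replicate 1, 2 or 4. It was 3 without F1 control replicate 4 or F3 control replicate 4. The share of all genes called without each library is not given beside these counts.

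Member 32 was lower in F3 EDC without overlap as well, at 4.15, 4.03, 3.73 and 3.31 CPM against 6.88, 6.06, 5.05 and 5.37 CPM in F3 control. It missed the threshold, with a difference of -0.70 on the log2 scale and an SE of 0.20 (edgeR, adjusted p = 0.0578). Member 39 was the reverse, at 1.39, 0.816, 1.15 and 1.46 CPM in F3 EDC and 0.382, 0.678, 0.814 and 0.728 CPM in F3 control. Its difference of 0.81 on the log2 scale, with an SE of 0.37, did not pass either (edgeR, adjusted p = 0.267). All 4 F3 EDC values lay below all 4 F3 control values for 3 members, where 3.78% of the genes tested were so, and above them for 1 member, where 5.76% were so. In either direction this held for 6.67% of the members and 9.54% of the genes tested.

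**Figure D4:**
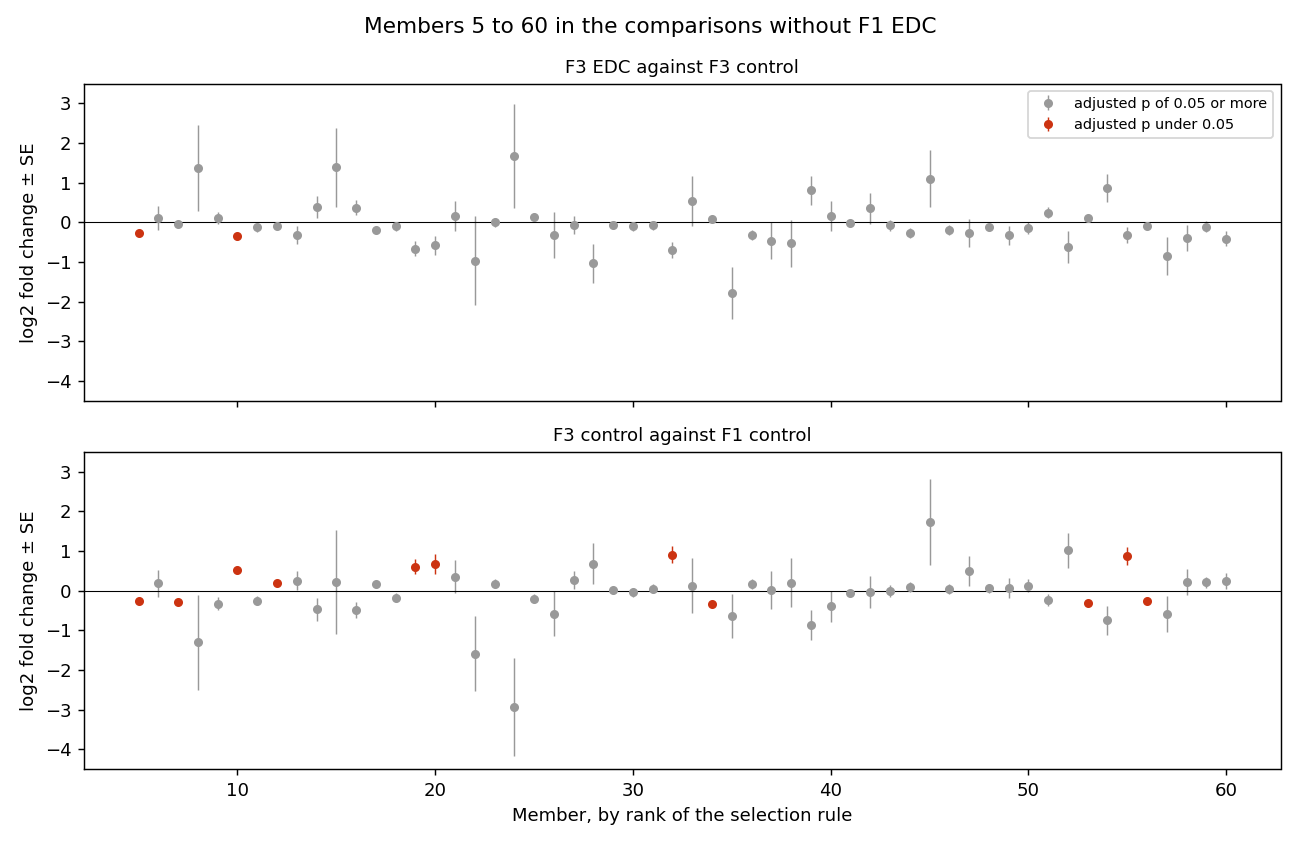
Log2 fold change with its SE (vertical axis) for members 5 to 60 in the comparisons that hold no F1 EDC library, with red points at an edgeR adjusted p under 0.05. In F3 EDC against F3 control 2 members are red, both below 0, and in F3 control against F1 control 11 are red, 6 above and 5 below 0.

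The controls of the 2 generations show how the members varied without the mixture. The numbers in their file names also differ, so generation and any difference in sequencing that these numbers mark cannot be told apart. The same edgeR test called 11 of the 60 members between F3 control and F1 control. All 11 were among the 51 members that passed the count filter without F1 EDC, whose median log2 fold change was 0.06. Of these 6 were higher in F3 control, where 14.6% of all genes tested were, and 5 were lower, where 12.9% were; in either direction 27.5% of all genes were called. At an unadjusted p under 0.05 there were 16 members (26.7%), beside 37.9% of all genes. The fitted change was above 0 for 31 members (51.7%), beside 47.5% of all genes. The median log2 fold change was 0.01 over the members and -0.02 over all genes. The values of the 2 groups did not overlap for 1 member higher and 4 lower in F3 control, where 10.1% and 15% of all genes did so, or 25.2% in either direction. This contrast shares the F3 control libraries with the F3 comparison. Without the 8 libraries with over 40% multimapping reads the count was 5, all higher, and only 2 F1 control and 3 F3 control libraries then remain. The share of all genes called in that fit is not given here, so this count shows nothing particular to the members.

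The 3 members with the smallest adjusted p among the 6 that were higher in F3 control were members 10, 32 and 55. Member 10 rose by 0.52 on the log2 scale, with an SE of 0.09 (edgeR, adjusted p = 0.000125) and no overlap between the groups. Member 32 rose from 2.82, 2.34, 3.44 and 5.48 CPM in F1 control to the F3 control values above, by 0.91 on the log2 scale with an SE of 0.21 (edgeR, adjusted p = 0.00227). Member 55 was at 6.42, 8.47, 5.73 and 16.8 CPM in F1 control and 17.6, 14.6, 13.5 and 14.3 CPM in F3 control, higher by 0.88 on the log2 scale with an SE of 0.23 (edgeR, adjusted p = 0.00732). F1 control replicate 4, the library with the fewest gene counts, lay among the F3 values of member 55. For members 10 and 32 the F3 EDC values lay closer to F1 control, at means of 23.7 and 3.80 CPM against 21.4 and 3.52 CPM. These calls passed in all 27 alternatives tried.

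Members 12, 19 and 20 were the other 3 called higher in F3 control, by 0.20, 0.61 and 0.67 on the log2 scale, and these calls were lost in 5, 6 and 13 of the 27 alternatives.

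The 5 members lower in F3 control had small changes. Member 53 fell by 0.31 on the log2 scale, with an SE of 0.07 (edgeR, adjusted p = 0.00119), having 517, 639, 538 and 675 CPM in F1 control and 417, 406, 467 and 514 CPM in F3 control, narrowly without overlap. Members 34, 7 and 5 had log2 fold changes of -0.33, -0.28 and -0.25 without overlap of the groups (edgeR adjusted p = 0.00436, 0.0133 and 0.00630). Member 56 differed by -0.25 with an SE of 0.09 (edgeR, adjusted p = 0.0387) and overlapping groups, and its call was lost in 14 of the 27 alternatives. In these 5 genes the mean F1 EDC level was 3.93 to 14.4 times that of F1 control and 5.16 to 18.2 times that of F3 control.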

How the data were processed

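RNA sequencing libraries were made from 16 hypothalamus samples and sequenced as single reads of 100 cycles, per the labels' protocols. Trimmomatic 0.33, TopHat2 2.1 and the build rn6 are named in the submitters' processing notes. The deposited files hold raw read counts per gene in the layout of STAR, of a version that no source used here gives. Column 4 was used, which held at least 52.5 times the gene counts of column 3; the 4 summary lines stayed out of totals. CPM values are unscaled. Tests used edgeR 4.0.16 in R 4.3.3 (TMM factors, 0.898 to 1.11; filterByExpr with a count minimum of 10; quasi-likelihood F test, two-sided, on 4 group means over all 16 libraries), after a check on simulated data. The standard error is the log2 fold change divided by the square root of F. Alternatives included RLE and upper quartile factors, DESeq2 1.42.0 and limma 3.58.1 voom.

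The members and lists were chosen with earlier results of these data known. Groups come from the source description, since every EDC sample carries the word Control in its title. The planned gene lists and cell type markers needed symbols and were not used, nor was the planned search for genes most like member 1, which has 0 counts in 11 of the 12 libraries it would use. By the planned rule without symbols, 2 IDs that rose and 2 that fell are printed, namely the first 2 by rank and the 2 called lower in F3. The other members whose values are given in full were chosen after their values were seen. No 2 libraries held identical counts.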

Additional observations from a re-analysis of the deposited data

Results flagged for a closer look

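For 12 of the members whose values are given by library, and the summed level, 43 sets of 4 values were checked for 1 value far from the other 3. Other members with values given above were not put through this check. Of the 43 sets, 3 were past the limit. Its chance rate of about 1 in 20 is meant for continuous values and does not hold for counts near 0. In F1 control, member 1 had its single count in replicate 3, so the gap was the whole range (1.0 of it), as it is for any single count. In F1 control, member 4 had 4 of its 6 counts in replicate 4, at 0.707 CPM against 0.0705 CPM or less, a gap of 0.900 of the range. The summed level of the 60 members in F3 EDC was 0.213% in replicate 4 against 0.239% to 0.243% in the other 3, a gap of 0.876 of the range. F3 EDC replicate 4 had 44.4% multimapping reads, the highest share among the F3 libraries.

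By the rule, every F1 EDC library lay above every F1 control in all 60 members. In 3 of them (5%) every F3 EDC library lay below every F3 control, where 3.78% of the genes tested were so. The log2 fold changes of these 3 members in F3 were -0.27 for member 5, -0.35 for member 10 and -0.70 for member 32. The rule fixed the F1 direction, and the difference between the generations was not tested.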

How the results depend on the processing

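The 60 members stayed in the list in numbers from 42 to 58 with unstranded counts, TMM factors, other offsets or other floors, and 54 to 60 with 1 library left out. Ranking by means kept 38, with 9 of 9 members of the lowest level but 2 of 6 of the highest. All 60 were called higher in F1 EDC in every alternative that tested them all, and a minimum mean log2 CPM of 1 left 54, all called. The rule used this contrast, so nothing is read from any count of calls in F1. In the main fit 25.4% of all genes tested were called higher. The 2 members called in F3 were 1 with upper quartile factors, with that filter or with only the F3 libraries, 4 with DESeq2, 4 with limma voom, and 0 without the libraries with over 40% multimapping reads, a fit chosen after seeing the data (edgeR, 5 members at an unadjusted p under 0.05, 51 tested). With 1 library left out they were 0 to 3. The 11 members called between controls were 8 to 12 with 1 library left out and 5 without the libraries with over 40% multimapping reads. Why the counts moved was not tested. The counts of calls in this section are given without the share of all genes called in each alternative. They therefore show nothing particular to the members. With the replicate block within generation the counts were 2, 9 and 60 in F3, between controls and in F1. Same-numbered libraries did not deviate together (correlations of -0.0408 to 0.0884 in F1 and -0.108 to 0.0410 in F3, and 2 of 8 and 3 of 8 libraries closest to their own number), so the numbers were not treated as pairs. No call reversed. Depth limits the members under 1 CPM outside F1 EDC, whose F3 levels rest on few counts or none.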

Other observations

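Reads on the other strand gave little signal at the members: they made up a median of 0.0323% of the 2 strands' counts in F1 EDC. Member 46 was the exception, with 58.95% of them on the other strand. Its own strand held 44.4, 51.3, 48.7 and 56.2 CPM in F1 EDC and 7.10 to 12.5 CPM in the 12 other libraries. The other strand held 72.3 ± 7.09 CPM in F1 EDC, 57.0 ± 2.55 CPM in F1 control (SD, n = 4 each). In F3 it held 70.3 ± 5.09 CPM in the controls and 73.2 ± 4.84 CPM after EDC ancestry (SD, n = 4 each). The other strand in F1 EDC, at 65.1 to 79.7 CPM, thus overlapped both F3 groups but lay above F1 control, at 53.7 to 59.4 CPM. The rule fixed that the member's own strand did not overlap any group. Members 42, 58 and 26 had 18.4%, 11.5% and 9.04% of their counts on the other strand, and all other members 1.55% or less.

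The highest of the 12 other libraries, which sets a member's rank, was an F1 control library for 34 of the 60 members, an F3 control library for 17 and an F3 EDC library for 9. F1 control replicate 4, with the fewest gene counts, was the highest for 17 members.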
